A study of Mus musculus with 4 samples.

Results

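The Ikaros family of zinc finger transcription factors comprises 5 genes in the mouse: Ikzf1 (Ikaros), Ikzf2 (Helios), Ikzf3 (Aiolos), Ikzf4 (Eos) and Ikzf5 (Pegasus). The members were taken by gene symbol from the deposited tables, and all 5 were found among 11027 genes listed. All 5 also passed the filter on low counts, which 10960 genes passed: a CPM (counts scaled to library size) of at least 1 in at least 1 library. RNA-seq was measured in CD4+ T cells from the spleen and lymph nodes of wild-type C57BL/6 mice aged 7 to 8 weeks. Naive cells were activated under neutral conditions and given a retrovirus that carried either Tox2 with GFP or GFP only. GFP-positive cells were sorted and then cultured. Both cultures held blocking antibodies to IL-2, to IL-4 and to IFN-gamma. The Tfh-like culture also held IL-6, which the Th0 culture lacked. The 4 groups were Tfh-like with Tox2, Th0 with Tox2, Tfh-like with GFP and Th0 with GFP, with 1 library each. The labels do not say how many mice gave the cells of a library, and Tox2 came from the virus as forced expression.

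Ikaros family proteins bind DNA through a group of zinc fingers near the N terminus. They pair with themselves and with each other through zinc fingers at the C terminus. They act mostly by bringing corepressor and remodelling complexes such as NuRD, Sin3 and CtBP to their target genes. Ikaros is a general regulator of lymphocytes, Helios and Eos are best known from regulatory T cells, and Aiolos can act together with STAT3 on Bcl6 in CD4+ T cells. Pegasus is the most distant member and prefers a different DNA sequence.

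A stretch of the coding sequence from the pairing zinc fingers at the C-terminal end is shown for Ikzf1, Ikzf2 and Ikzf5 because it bears on whether reads can be told apart between members. The 66 bases run 5′ to 3′ in reading frame, from GENCODE vM21 transcripts, and capitals mark bases that differ from Ikzf1.
Ikzf1: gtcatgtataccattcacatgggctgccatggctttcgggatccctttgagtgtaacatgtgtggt
Ikzf2: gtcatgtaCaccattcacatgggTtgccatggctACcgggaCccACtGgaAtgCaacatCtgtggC
Ikzf5: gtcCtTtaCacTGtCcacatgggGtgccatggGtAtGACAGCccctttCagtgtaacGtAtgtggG
In this stretch Ikzf2 differed from Ikzf1 at 12 bases and Ikzf5 at 19. It was chosen as the 66-base window of Ikzf1 from which Ikzf2, Ikzf3 and Ikzf4 together differed least. It is thus the most alike stretch and not a typical one. Over the aligned coding sequences, identity between members lay between 58.9% (Ikzf3 and Ikzf5) and 67.2% (Ikzf1 and Ikzf2). The longest run that any pair of members shared in any annotated transcript was 32 bases, between Ikzf2 and Ikzf4.

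The members lie on 4 chromosomes (GRCm38). Ikzf1 is on chromosome 11 from 11685003 to 11772926 on the plus strand. The other members are on the minus strand: Ikzf2 on chromosome 1 from 69531214 to 69687245, Ikzf3 on chromosome 11 from 98464902 to 98546031, Ikzf4 on chromosome 10 from 128630843 to 128645991, and Ikzf5 on chromosome 7 from 131388652 to 131410521. Of the 5721 exon bases of Ikzf5, 4835 overlap exons of Pstk and Gm44624 on the opposite strand. Reads from Ikzf5 and these genes cannot be told apart there without strand, and the strand setting of the counts is not given in the sources used here, so the Ikzf5 values are uncertain. The corresponding overlaps were 144 bases for Ikzf2 and 37 for Ikzf4, and Ikzf1 and Ikzf3 had none.

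Total counts lay between 13015283 and 13673774 per library. Tox2 had 32246 counts (Tfh-like) and 35297 (Th0) with Tox2, against 851 (Tfh-like) and 144 (Th0) with GFP, which follows the virus in each label. The 6 CD4+ T-cell markers summed to between 1010 and 1020 FPKM (expression per gene length and sequencing depth, as deposited) in every library. Among these 6, Cd4 rose with Tox2 by 0.49 and Cd5 fell by 0.65 (edgeR adjusted p = 0.0409 and 0.0223), and Cd28 rose by 0.54 in Tfh-like (edgeR adjusted p = 0.0195). Their part in the results was not tested. Of 20 markers of B, myeloid, NK, plasmacytoid dendritic and CD8 T cells, 5 were listed. Cd8b1 was the highest of these, with at most 8.36 FPKM, and the others summed to at most 0.971 FPKM per cell type. Foxp3, which defines regulatory T cells, was not analysed here.

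Ikaros itself was by far the most abundant member. Ikzf1 stood at 152 FPKM (Tfh-like) and 156 (Th0) with Tox2, against 120 (Tfh-like) and 128 (Th0) with GFP. These levels lay at or above the 97.4th percentile of all listed genes in each library. Eos came next in the deposited FPKM of all 4 libraries, though in Th0 with Tox2 it was not above Ikzf2 beyond counting error. Ikzf4 stood at 9.60 FPKM in Tfh-like with Tox2, 9.59 in Th0 with Tox2, 5.26 in Tfh-like with GFP and 3.09 in Th0 with GFP. Ikzf1 was 15.8-fold above Ikzf4 (Tfh-like) and 16.3-fold (Th0) with Tox2, against 22.8-fold (Tfh-like) and 41.5-fold (Th0) with GFP.

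In the deposited FPKM, the order of Helios and Aiolos differed between the viruses beyond counting error in Th0 only. With Tox2 in Th0, Ikzf2 was 4.18-fold above Ikzf3 (95% counting interval 3.71 to 4.72). In Th0 with Tox2, Ikzf2 stood at 8.96 FPKM and did not differ from Ikzf4 beyond counting error (ratio of Ikzf4 to Ikzf2 1.07, 95% counting interval 0.989 to 1.16). In Tfh-like with Tox2 it stood at 2.54 FPKM, beside 2.39 for Ikzf3 (ratio 1.06, interval 0.926 to 1.22). With GFP, Ikzf2 was below Ikzf3, at 0.423 against 0.694 FPKM in Tfh-like and at 0.598 against 0.799 FPKM in Th0. Ikzf5 was lowest throughout, from 0.225 to 0.452 FPKM, values that its overlap with genes on the opposite strand leaves uncertain. In Th0 with GFP its level did not differ from that of Ikzf2 beyond counting error (ratio of Ikzf2 to Ikzf5 1.32, interval 0.927 to 1.91). All counting intervals cover the sampling of reads only, because reads lacking molecular identifiers can repeat a molecule and each group had 1 library.

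**Figure D1:**
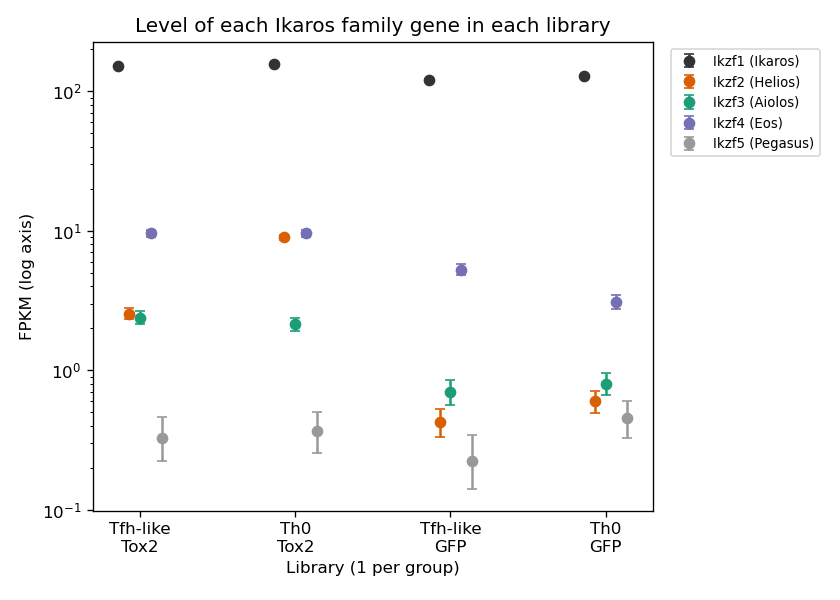
FPKM (log axis) of each Ikaros family gene in each of the 4 libraries, with Tox2 libraries on the left; points are single libraries and bars are 95% Poisson counting intervals. Ikzf1 stayed between 120 and 156 FPKM, while Ikzf2 reached 8.96 FPKM in Th0 with Tox2 and 0.423 FPKM in Tfh-like with GFP.

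The order of Ikzf2 and Ikzf3 in Tfh-like with Tox2 depended on the length used. The deposited FPKM divide by the joined length of all annotated exons: for all 5 members this length was proportional to that in GENCODE vM21. For Ikzf3 this is 8754 bases, of which its longest protein-coding transcript holds 3658. For Ikzf2 these lengths are 11613 and 9278 bases. Values per length of that transcript below still count reads from all annotated exons. Reads from outside the transcript thus raise them, and their number is not known. Per length of the longest protein-coding transcript, Ikzf3 stood at 5.71 and Ikzf2 at 3.18 in Tfh-like with Tox2, the reverse of their order in the deposited FPKM. In Tfh-like with GFP they stood at 1.66 and 0.529, so by this length Ikzf3 was above Ikzf2 in Tfh-like with both viruses. In Th0 their order was the same by either length. Ikzf4 and Ikzf2 both stood at 11.2 in Th0 with Tox2 by the length of the longest protein-coding transcript.

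The first comparison asked how the family differed with forced Tox2. Helios, Aiolos and Eos rose with Tox2, Helios most. Both Tox2 libraries lay above both GFP libraries for 4 of 5 members (Ikzf1, Ikzf2, Ikzf3 and Ikzf4), where 19.5% of all genes tested did so. In a fit of virus and culture to all 4 libraries (edgeR's quasi-likelihood test, adjusted p under 0.05 over all genes), 3 of 5 members rose and none fell, against 3.50% of all genes that rose and 2.29% that fell. This fit leaves 1 residual degree of freedom, which is how far the Tox2 effects in the cultures lie apart, so no p-value here rests on replicates within a group.

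Helios is a factor that keeps regulatory T cells stable. Ikzf2 had 490 counts (Tfh-like) and 1795 (Th0) with Tox2, against 80 (Tfh-like) and 118 (Th0) with GFP. The lower of the Tox2 libraries was thus above the higher of the GFP libraries. The log2 fold over both cultures was 3.31 (SE 0.29, edgeR adjusted p = 0.00832), or 9.93-fold, the 15th highest of 10960 genes.

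Aiolos is induced in Th17 cells, where it silences Il2. Ikzf3 had 347 counts (Tfh-like) and 324 (Th0) with Tox2, against 99 (Tfh-like) and 119 (Th0) with GFP. The Tox2 libraries resembled each other, as did the GFP libraries. The log2 fold over both cultures was 1.58 (SE 0.17, edgeR adjusted p = 0.0120), or 2.99-fold.

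Eos is a partner of Foxp3 that brings CtBP1 to silenced genes in regulatory T cells. Ikzf4 had 956 counts (Tfh-like) and 991 (Th0) with Tox2, against 514 (Tfh-like) and 315 (Th0) with GFP. The Tox2 libraries were nearly level, and the GFP libraries were lower and apart from each other. The log2 fold over both cultures was 1.22 (SE 0.18, edgeR adjusted p = 0.0251), or 2.33-fold.

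Ikzf1 had 14587 counts (Tfh-like) and 15540 (Th0) with Tox2, against 11273 (Tfh-like) and 12598 (Th0) with GFP. Its log2 fold was 0.30 (SE 0.09, edgeR adjusted p = 0.115), which did not pass. Ikzf5 had 31 counts (Tfh-like) and 36 (Th0) with Tox2, against 21 (Tfh-like) and 44 (Th0) with GFP, so the groups overlapped. Its log2 fold was 0.05 (SE 0.35, edgeR adjusted p = 0.944). Pstk, whose exons overlap Ikzf5, had 239 and 244 counts with Tox2 and 198 and 256 with GFP, in Tfh-like and Th0 each.

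**Figure D2:**
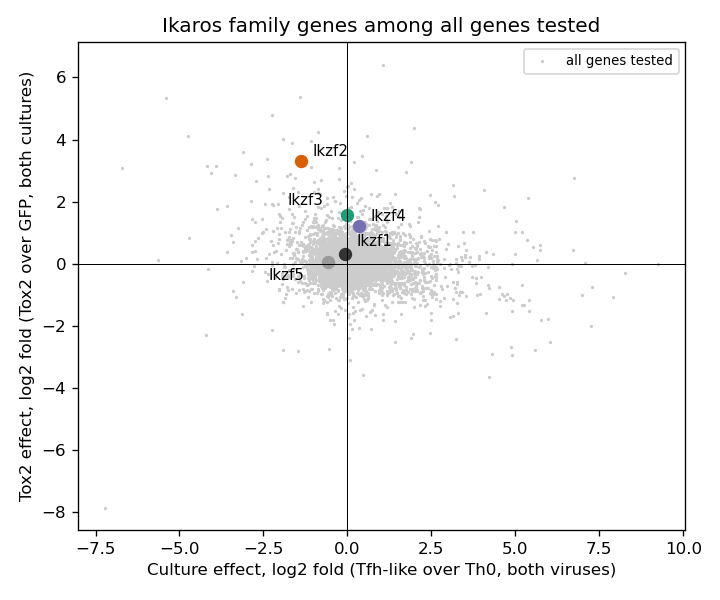
Log2 fold of Tox2 over GFP across both cultures (y axis) against log2 fold of Tfh-like over Th0 across both viruses (x axis), for all genes tested (grey) and the 5 Ikaros family genes (coloured). Ikzf2 stands at 3.31 on the y axis and -1.38 on the x axis, Ikzf3 and Ikzf4 at 1.58 and 1.22 on the y axis, and Ikzf1 and Ikzf5 at 0.30 and 0.05.

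The make-up of the family was different with Tox2. The members other than Ikzf1 summed to 14.9 FPKM (Tfh-like) and 21.1 (Th0) with Tox2, against 6.61 (Tfh-like) and 4.94 (Th0) with GFP. As a share of the family's FPKM this was 8.90% (95% counting interval 8.49 to 9.31) and 11.9% (11.5 to 12.3) with Tox2, against 5.23% (4.85 to 5.61) and 3.71% (3.41 to 4.01) with GFP. Helios alone made up 5.06% of the family in Th0 with Tox2, against 0.449% in Th0 with GFP. In bulk RNA, a higher level per cell and more cells that express a gene cannot be told apart.

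**Figure D3:**
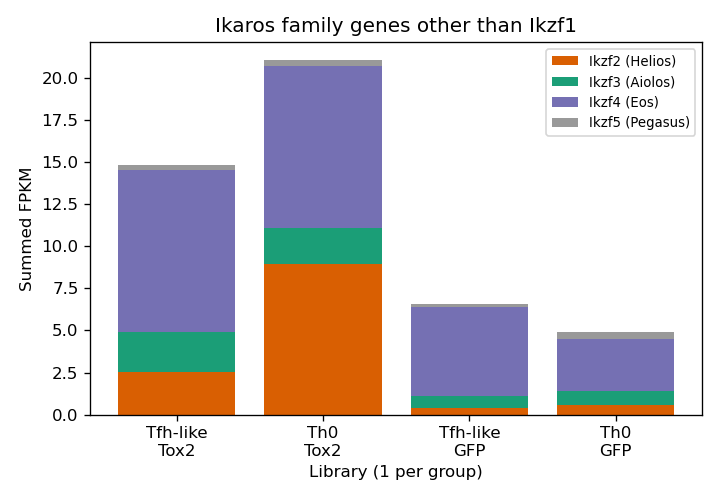
Summed FPKM of Ikzf2, Ikzf3, Ikzf4 and Ikzf5 in each library, as stacked bars with the Tox2 libraries on the left and no error bars. The bars reach 14.9 and 21.1 FPKM with Tox2, against 6.61 and 4.94 FPKM with GFP. Ikzf4 is the largest segment in every bar, though in Th0 with Tox2 it does not differ from Ikzf2 beyond counting error.

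Within each culture the members were compared as pairs of libraries, with no replicate check and no p-value. A gene is called 2-fold apart here where its log2 fold of normalised CPM is at least 1 in size and its 95% counting interval excludes 0. The pairs share libraries, so their folds are not independent. In Th0, 3 of 5 members were 2-fold higher with Tox2, against 3.18% of all genes. Ikzf2 was 14.5-fold higher (interval 12.2 to 17.9), Ikzf4 3.03-fold (2.68 to 3.47) and Ikzf3 2.61-fold (2.13 to 3.28). In Tfh-like, 2 of 5 members were 2-fold higher with Tox2, against 2.87% of all genes. Ikzf2 was 5.86-fold higher (4.71 to 7.67) and Ikzf3 3.38-fold (2.73 to 4.32), while Ikzf4 was 1.81-fold higher (1.63 to 2.03) and was not called. Ikzf1 was 1.26-fold higher with Tox2 in Tfh-like (1.23 to 1.29) and 1.19-fold in Th0 (1.17 to 1.22).

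**Figure D4:**
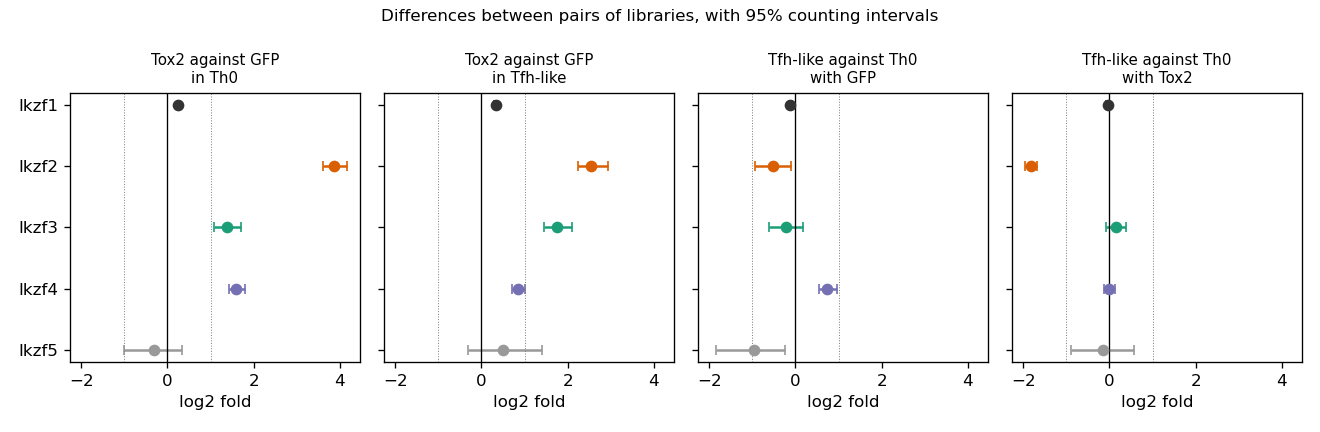
Log2 folds (x axis) of the 5 members in 4 pairs of libraries, with 95% counting intervals; dotted lines mark a log2 fold of 1 in either direction. Ikzf2 stands farthest from 0 among the members with Tox2 in both cultures (3.86 in Th0 and 2.55 in Tfh-like), and on the lower side between cultures with Tox2 (-1.81).

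The Tox2 fold of Helios was smaller in Tfh-like than in Th0 by more than counting error. The log2 fold of Ikzf2 was 2.55 in Tfh-like and 3.86 in Th0, a difference of -1.31 (95% counting interval -1.74 to -0.87). It was the only member 2-fold apart in this difference, against 3.49% of all genes. For Ikzf4 the log2 fold was 0.86 in Tfh-like and 1.60 in Th0, a difference of -0.74 (-0.98 to -0.50). For Ikzf3 it was 1.76 in Tfh-like and 1.38 in Th0, a difference of 0.37 whose interval included 0 (-0.07 to 0.81). The design leaves no degree of freedom to test these differences against replicates. Tox2 itself had a log2 fold of 5.21 in Tfh-like and 7.87 in Th0, a difference of -2.66 (-2.92 to -2.41). The contrast in Tox2 level was thus not equal in the cultures, and its part in the members' differences was not tested.

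The next comparison asked how the family differed between the culture with IL-6 and the one without. Helios was the only member that passed: 1 of 5 fell and none rose, against 9.20% of all genes that fell and 13.8% that rose. Of all genes that passed, 1512 of 2520 rose, against 1500 of 3149 when scaled by plain library size and 1385 of 3134 with length and GC trends removed; Ikzf2 fell in each. The log2 fold of Ikzf2 over both viruses was -1.38 (SE 0.28, edgeR adjusted p = 0.0186). It was 3.52-fold lower in Tfh-like than in Th0 with Tox2 (log2 fold -1.81, interval -1.96 to -1.67) and 1.42-fold lower with GFP (-0.51, interval -0.95 to -0.10). With Tox2 it was the only member 2-fold lower, against 2.86% of all genes, and with GFP no member was 2-fold apart, against 10.9% of all genes. Ikzf5 lay just short of the call with GFP (log2 fold -0.96, interval -1.85 to -0.24) and was called at -1.05 when scaled by plain library size and at -1.01 with a prior count of 0.5.

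Eos did not pass for the culture and was not 2-fold apart in either pair. Ikzf4 had a log2 fold of 0.74 (0.54 to 0.96) with GFP, 1.68-fold higher in Tfh-like than in Th0. With Tox2 the libraries were level, at 71.5 CPM in Tfh-like and 71.3 CPM in Th0, a log2 fold of 0.00 (-0.13 to 0.13) that was -0.02 or -0.04 under other scalings. The estimate over both viruses was 0.35 (SE 0.18, edgeR adjusted p = 0.222).

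The remaining members did not pass for the culture. Ikzf3 had log2 folds of 0.15 with Tox2 and -0.22 with GFP, and both intervals included 0. Ikzf1 had -0.04 with Tox2 and -0.12 with GFP. Ikzf5 had 31 and 21 counts in Tfh-like, with Tox2 and with GFP, against 36 and 44 in Th0. It was the only member with both Tfh-like libraries below both Th0 libraries, as were 25.0% of all genes. Its log2 fold was -0.58 (SE 0.35, edgeR adjusted p = 0.286).

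Genes with patterns like those of the members were sought by the Euclidean distance between log2 CPM centred on each gene's mean, over the 4 libraries. This was done for the 3 members whose log2 CPM spanned at least 1. Nearest to Ikzf2 were Pth1r (distance 0.37), the receptor for parathyroid hormone, the cytokine Il13 (0.41) and Slc16a11 (0.59), a monocarboxylate transporter family gene. Pth1r had 11 and 52 counts with Tox2 in Tfh-like and Th0, against 0 and 2 with GFP, and Il13 had 19 and 61 counts, against 1 and 4. Slc16a11 was better measured, with 261 and 598 counts with Tox2, against 31 and 63 with GFP.

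Nearest to Ikzf3 were Bco2 (0.08), a carotenoid-cleaving enzyme, the GABA receptor subunit Gabrd (0.14) and Wls (0.31), which carries Wnt proteins to the cell surface. Bco2 had 162 and 153 counts with Tox2 in Tfh-like and Th0, against 49 and 56 with GFP. Gabrd had few counts, 19 and 17 with Tox2, against 4 and 6 with GFP. Nearest to Ikzf4 were Rgs9bp (0.20), Ier5l (0.21) and Trp53i11 (0.27). Rgs9bp had 46 and 46 counts with Tox2 in Tfh-like and Th0, against 28 and 15 with GFP. Ier5l, an immediate early response gene, had 2276 and 2135 counts with Tox2, against 1273 and 652 with GFP. The members' own patterns were 0.77 apart for Ikzf3 and Ikzf4, 2.16 for Ikzf2 and Ikzf3, and 2.52 for Ikzf2 and Ikzf4. Within a distance of 0.5 lay 2 genes for Ikzf2, 18 for Ikzf3 and 50 for Ikzf4. With 4 libraries, such distances are a description only, and at counts near 0, as for Pth1r, Il13 and Gabrd with GFP, they depend on the prior count.

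**Figure D5:**
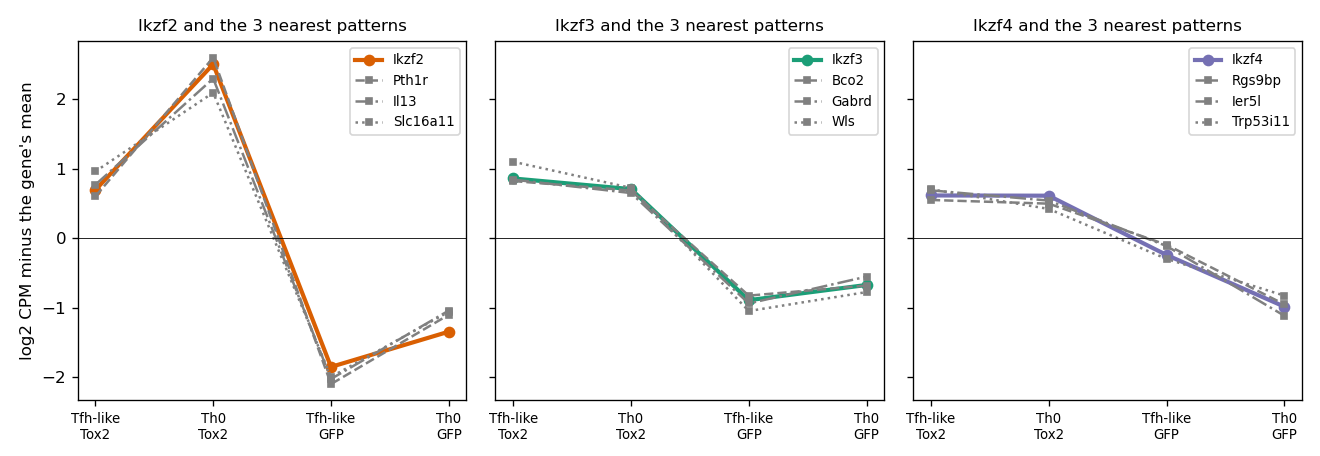
Log2 CPM minus each gene's mean (y axis) in the 4 libraries, for Ikzf2, Ikzf3 and Ikzf4 (coloured) and the 3 genes with the nearest pattern to each (grey); lines only connect points of a gene. Ikzf2 peaks in Th0 with Tox2, Ikzf3 separates the viruses, and Ikzf4 is level in both Tox2 libraries and lowest in Th0 with GFP.

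The complexes that Ikaros proteins work with, and the enzymes that modify or degrade them, were measured in 36 genes. With Tox2, 0 of 36 passed by edgeR, DESeq2 or limma-voom, which called 635, 492 and 727 of 10960 genes, and 5 had an unadjusted edgeR p under 0.05, against 2963 of 10960 genes. Their log2 folds lay between -0.34 and 0.42. Chd4, the remodelling ATPase of NuRD, had a log2 fold of 0.12, the corepressor Ctbp1 -0.12, and Crbn 0.12. Crbn encodes cereblon, through which thalidomide analogues degrade Ikaros and Aiolos in human cells. Between the cultures, 2 of 14 NuRD genes rose and 4 fell by edgeR, against 13.8% and 9.20% of all genes, and DESeq2 called 4, against 1609 of 10960 genes (median -0.21, against -0.01 for all genes). Hdac2 fell by 0.68 (SE 0.10) and Chd3 by 0.58 (SE 0.10), while the methyl-CpG binding protein Mbd2 rose by 0.50 (SE 0.10). Of 11 Sin3 and CtBP genes, 1 (Sap30, 0.58) rose between the cultures, and of 6 CK2 and PP1 genes 1 (Ppp1cc, 0.36) rose, neither of which DESeq2 called. These shares, and that of the NuRD genes that rose, are near the 13.8% of all genes. Of 5 genes of the cereblon ligase, none passed between the cultures by any of the 3 tools, nor had an unadjusted edgeR p under 0.05.

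Of 16 genes that Ikaros family factors are known to act on in lymphocytes, 10 were tested. With Tox2, 2 rose and 0 fell by edgeR, against 3.50% and 2.29% of all genes (median 0.09, against 0.00 for all genes). DESeq2 called 2 and limma-voom 3, and 8 of the 10 had an unadjusted edgeR p under 0.05, against 2963 of 10960 genes. Among those that did not pass, Tbx21 had a log2 fold of -1.19 and Dtx1 one of -1.17 (edgeR adjusted p = 0.0677 and 0.112). In the other direction, Dntt had 0.77 and Bcl2 0.55 (edgeR adjusted p = 0.177 and 0.0657). Dtx1 had few counts, 19 and 19 with Tox2 in Tfh-like and Th0, against 56 and 30 with GFP. Tbx21 had 256 and 11 counts with Tox2 in Tfh-like and Th0, against 657 and 10 with GFP. Its log2 fold with Tox2 was -1.39 in Tfh-like (interval -1.61 to -1.18) and 0.08 in Th0 (-1.29 to 1.48). Bcl6, the factor that specifies Tfh cells, had 2632 and 1734 counts with Tox2 in Tfh-like and Th0, against 977 and 591 with GFP, and rose by 1.45 (SE 0.10, edgeR adjusted p = 0.00514). Cd4 rose by 0.49. Il2 had 47 and 130 counts with Tox2 in Tfh-like and Th0, against 74 and 185 with GFP, with a log2 fold of -0.61 that did not pass (edgeR adjusted p = 0.133). Between the cultures, 4 rose and 1 fell, against 13.8% and 9.20% of all genes (median 0.64, against -0.01 for all genes). Tbx21, encoding T-bet, rose by 5.40, Dntt by 1.58, Il7r by 0.94 and Bcl6 by 0.71, and Il2 fell by 1.34. The log2 fold of Il7r was 1.46 with GFP and 0.43 with Tox2. Stat3, the Aiolos partner, had a log2 fold of 0.46 with Tox2 (edgeR adjusted p = 0.157) and rose by 1.24 in Tfh-like. Ahr, which induces Aiolos in Th17 cells, had -0.62 with Tox2 (edgeR adjusted p = 0.232) and rose by 2.08 in Tfh-like. Their Tox2 folds differed between the cultures. In log2, Stat3 had 0.82 in Th0 and 0.11 in Tfh-like, and Ahr had 0.05 in Th0 and -1.06 in Tfh-like.

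Helios and Eos are often read as regulatory T-cell markers, so other genes of that cell type were set beside them. Of 12 such genes, 9 were tested, and Foxp3 was not among them. None of the 9 rose with Tox2 and 2 fell, against 3.50% and 2.29% of all genes: Gpr83 by 1.49 and Izumo1r by 0.52, close to the threshold (edgeR adjusted p = 0.0494 and 0.0484). DESeq2 called 1 of the 9. The median was -0.38, against 0.00 for all genes. Il2ra, which encodes the alpha chain of the IL-2 receptor, had 2906 and 5591 counts with Tox2 in Tfh-like and Th0, against 12209 and 5402 with GFP, and did not pass. The 9 genes summed to 391 and 367 FPKM with Tox2 in Tfh-like and Th0, against 595 and 384 with GFP. In Tfh-like with GFP the largest parts were Tnfrsf18, Ctla4 and Il2ra, at 195, 178 and 131 FPKM. Between the cultures 2 rose (Lrrc32 by 1.67 and Ctla4 by 0.97) and 2 fell (Nrp1 by 1.25 and Nt5e by 1.01), against 13.8% and 9.20% of all genes.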

How the data were processed

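RNA-seq of 4 libraries was analysed, 1 per combination of virus and culture. Each deposited file gives raw read counts per gene as whole numbers. Per the file headers, the same tables hold FPKM that the authors computed. The submitters' processing notes list the build mm10 and, with no role or order, MACS2, edgeR, Subread, featureCounts, Bowtie2 and Trim Galore 0.4.4. Neither the strand setting nor the gene annotation is given in the sources used here. FPKM over count was 1 factor per library times 1 per gene (spread at most 3.13e-06 percent), and for 92.5% of 11022 genes the gene factor matched the joined exon length of GENCODE vM21 within 1%. FPKM was used for levels and counts for all tests. Every listed gene had at least 0.658 CPM in its second-highest library.

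Genes that reached a CPM of 1 in any library were kept, and their counts were scaled by TMM and fitted as culture plus virus (edgeR 4.0.16 in R 4.3.3, quasi-likelihood test, Benjamini-Hochberg over 10960 genes, threshold 0.05). The 1 residual degree of freedom was moderated over all genes, with a median prior of 5.03 degrees of freedom. The SE is the fold over the square root of F. Genes are said to rise or fall where they passed. Pairs of libraries were described by log2 folds with a prior count of 2 and exact 95% conditional binomial intervals, and differences of folds by the delta method. A count of 0 allows up to 3 counts. The procedure was tested on simulated counts of the same additive form as the fit. The Tox2 effect was equal in both cultures, and all genes had the same spread beyond counting error. Differences of the Tox2 effect between the cultures, such as that of Ikzf2, and differences in spread between genes were thus not covered.

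The members and the gene lists were chosen with earlier results of these data known. The genes named are the members, the 3 nearest patterns of each member that spans a log2 CPM of 1, from each list the largest folds that passed (at most 4 for either effect), and Crbn, Ctbp1, Chd4, Bcl6, Foxp3, Il2, Stat3 and Ahr. Pattern searches left out predicted genes and receptor segments. Pstk, Il2ra, Tnfrsf18, Cd8b1, Cd5, Cd28, Dtx1, Bcl2 and the Tox2 check were added after their values were seen. Alternatives were RLE, library-size and FPKM scaling, other filters and prior counts, removal of length and GC trends, DESeq2 1.42.0 and limma-voom 3.58.1. The Ikzf3 and Ikzf4 sequences are not reported here. Promoter sequences are not shown, and promoters of Ikzf2, Ikzf3 and Ikzf4 were not analysed here.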

Additional observations from a re-analysis of the deposited data

Results flagged for a closer look

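Ikzf5 went in opposite directions with Tox2 in the cultures, with log2 folds of 0.49 in Tfh-like and -0.32 in Th0, a difference of 0.81 (95% counting interval -0.20 to 1.82). The difference was not tested, both folds have intervals that include 0, and the gene had between 21 and 44 counts per library.

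Ikzf3 went in opposite directions between Tfh-like and Th0, with log2 folds of 0.15 with Tox2 and -0.22 with GFP, a difference of 0.37 (95% counting interval -0.07 to 0.81) that was not tested. Both folds have intervals that include 0.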

How the results depend on the processing

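The 3 members that passed for Tox2 (Ikzf2, Ikzf3 and Ikzf4) and the 1 that passed for the culture (Ikzf2) also passed under every scaling, filter, trend removal and tool run. The Tox2 log2 fold ranged from 3.18 to 3.41 for Ikzf2, 1.47 to 1.60 for Ikzf3 and 1.13 to 1.24 for Ikzf4, with highest adjusted p of 0.0213, 0.0199 and 0.0380. The culture log2 fold of Ikzf2 ranged from -1.57 to -1.25 (highest adjusted p 0.0449). Members 2-fold apart between Tfh-like and Th0 with GFP came to 1 and not 0 with plain library size and with a prior count of 0.5, where Ikzf5 had -1.05 and -1.01; the main value was -0.96. Values near 0 changed sign: Ikzf4 between the cultures with Tox2 had -0.02 with RLE scaling, -0.04 with plain library size and -0.04 with length and GC trends removed, and Ikzf3 for the culture had 0.04 with limma-voom and 0.00 with edgeR's bias-adjusted test (chosen, like the robust test, after seeing the data). The cause was not tested. Plain library size moved the median fold of all genes between the cultures with GFP to -0.11. Genes that passed for Tox2 numbered 635, against 492 with DESeq2, 1193 with plain library size and 364 up of 704 with trends removed (384 up of 635 without). For the culture they numbered 2520, against 1609 with DESeq2, 1500 up of 3149 with plain library size and 1385 up of 3134 with trends removed (1512 of 2520 without). No library could be left out, since the additive fit would then have no residual degree of freedom. No paired analysis was possible because each group has 1 library. Depth limits Ikzf5 most, and its overlap with Pstk and Gm44624 on the opposite strand leaves its level uncertain.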
